A study of Mus musculus with 6 samples.

Results

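The amino acid transporter genes described here are the members of 7 solute carrier (Slc) families, Slc1, Slc3, Slc6, Slc7, Slc36, Slc38 and Slc43, chosen by gene symbol alone. The rule found 60 of the 43432 genes in the deposited table. At least 1 read fell on 52 of them, 43 were abundant enough to be tested, and the other 17 are accounted for at the end. These families carry amino acids, and a few of their members carry taurine, creatine, betaine, monoamines or purine bases. RNA was sequenced from the right and left atria of 3 obese and 3 lean wild-type C57BL/6J mice. All mice were 6 weeks old when the diets started. The obese group ate a high-fat diet (HFD) for 10 weeks and the lean group control chow for the same time. These diets are the ones in the sample titles and in the column names of the table. The treatment entry of each of the 6 samples names the other diet, and every direction below rests on the titles.

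Heteromeric transporters pair a heavy chain of the Slc3 family, which brings the complex to the plasma membrane, with a light chain of the Slc7 family, which does the transport. Most light chains are exchangers and need other carriers, such as the sodium-driven members of the Slc38 and Slc1 families, to load the cell with the amino acids they give away. Leucine, glutamine and arginine that enter this way feed protein synthesis and are sensed by the kinase complex mTORC1. In the heart, separate carriers of the Slc6 family import taurine and creatine, which myocytes hold at high concentrations.

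The value of a gene in a mouse is its normalized count, the number of reads divided by 1 size factor per mouse. Reads on genes ranged from 15874251 to 28971508 per mouse, with lean mouse 2 the deepest. Lean mouse 2 also stood apart in its mitochondrial share of reads, 30.7% against 19.5% to 24.4%, and in its summed level of 6 ventricular myocyte markers, 17499 normalized counts against 6958 to 9958. The summed level of 6 atrial myocyte markers was 295144, 292769 and 521796 in obese mice 1, 2 and 3 and lay between 452325 and 493072 in the lean mice, so that obese mice 1 and 2 were below every lean mouse and obese mouse 3 above. By mean difference all 6 were lower in obese atria (median -0.42), 3 with an unadjusted p under 0.05 and 2, Sln and Kcnj3, without overlap, and none passed the adjusted threshold. The summed level of 6 endothelial markers was 18704 to 20210 in obese and 16123 to 16142 in lean mice, with Pecam1, Tie1 and Vwf higher in every obese mouse and the other 3 overlapping. Of these marker sums only the endothelial one separated the groups. The macrophage, white adipocyte and brown adipocyte sums, given below, separated them as well. The part of these cell types in the results on the transporters was not tested. A signal of 3 reads corresponds to 2.05 normalized counts in lean mouse 2 and to 3.01 to 3.41 in the others, a limit that covers counting error only. The labels say nothing of cages or litters, so p-values measure only the spread between these samples.

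Of the 43 genes tested, 1 passed the threshold: Slc7a5, the light chain LAT1, rose to 2.12 times the lean level in obese atria. That is 2.33% of those tested, beside 0.746% of all 15275 genes tested (limma on log2(normalized count + 1), Benjamini-Hochberg adjusted p under 0.05 over all genes). At an unadjusted p under 0.05 there were 13 of 43 (30.2%), beside 12.2% of all genes. Of these 13, 6 were higher in obese atria, where the share of all genes is 6.66%, and 7 were lower, where it is 5.55%. In 17 of 43 (39.5%; 8 higher and 9 lower) the 3 obese values lay all above or all below the 3 lean values, beside 18.0% of all genes. With 3 mice per group an exact permutation test (two-sided) reaches 0.1 at best, and that is the p of these 17 genes. The differences went both ways, with 27 genes higher and 16 lower by sign, beside 7761 higher and 7514 lower over all genes tested. Their median was 0.06 on the log2 scale, beside 0.00 for all genes. They ranged from -1.29 for Slc38a5 to 3.22 for Slc6a12, both genes of few reads. For 6 of the 43 the mean of 1 group was under the minimum of 10 normalized counts, so that they entered the test through the other group. Of the 13, 4 are among these 6: Slc6a12 and Slc1a2 through the obese mice, Slc38a5 and Slc6a2 through the lean mice. Among the 37 genes with both means at or above 10, 9 had an unadjusted p under 0.05 and 13 did not overlap. The share of all genes under that condition was not computed. With a minimum of 10 in every mouse, 10 of 33 transporter genes had an unadjusted p under 0.05 in limma, beside 1777 of 13905 genes.

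**Figure D1:**
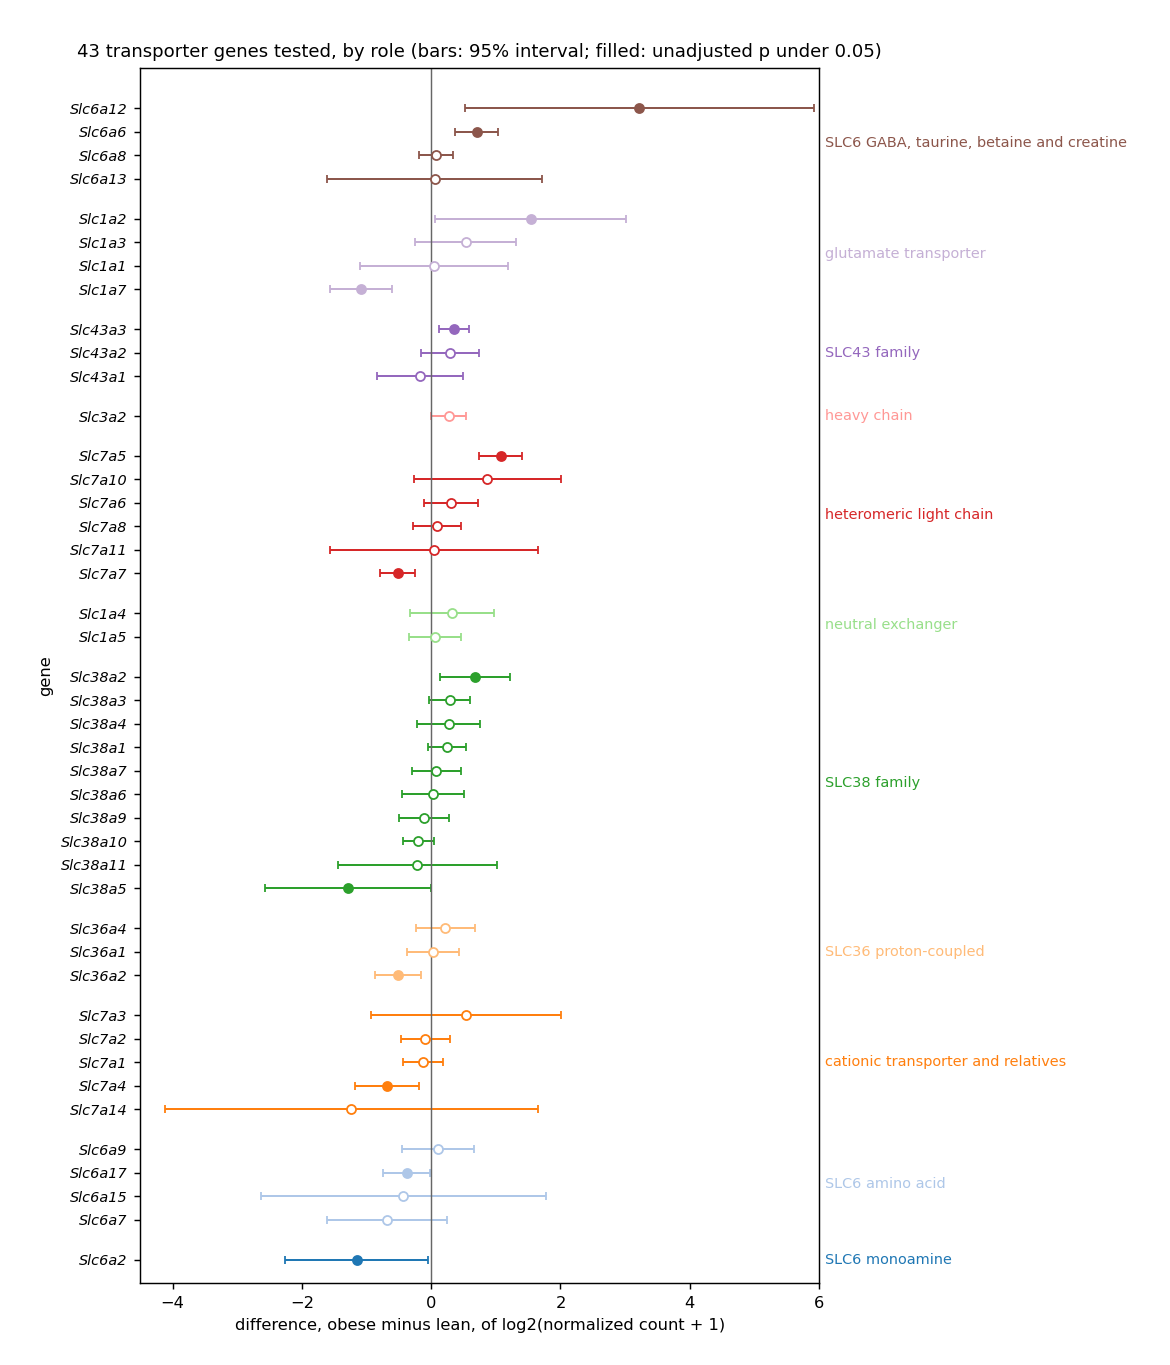
Difference between obese and lean atria for the 43 transporter genes tested, grouped by role. The x axis is the difference of log2(normalized count + 1), obese minus lean, points are limma estimates from 3 mice per group, bars their 95% intervals, and filled points have an unadjusted p under 0.05. Slc7a5, at 1.08, passed the adjusted threshold, and the widest bars belong to genes of few reads such as Slc7a14 and Slc6a12.

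Levels of different genes are compared as normalized counts per kb of exon, averaged over the 6 mice. The purine carrier gene Slc43a3 stood highest at 556, followed by Slc38a10 at 503, the system A carrier Slc38a2 at 409, the creatine carrier Slc6a8 at 346 and the light chain Slc7a7 at 336. The heavy chain Slc3a2 came next at 306 and the glutamine exchanger Slc1a5 at 269. Slc38a3 at 223, Slc36a2 at 211 and the taurine carrier Slc6a6 at 164 completed the first 10. Slc7a5, the gene that passed the threshold, stood 12th at 72.3. Neighbours in this order were close: the first 2 genes change places in the lean group, where Slc38a10 averaged 538 and Slc43a3 488, while in the obese group they averaged 469 and 624.

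**Figure D2:**
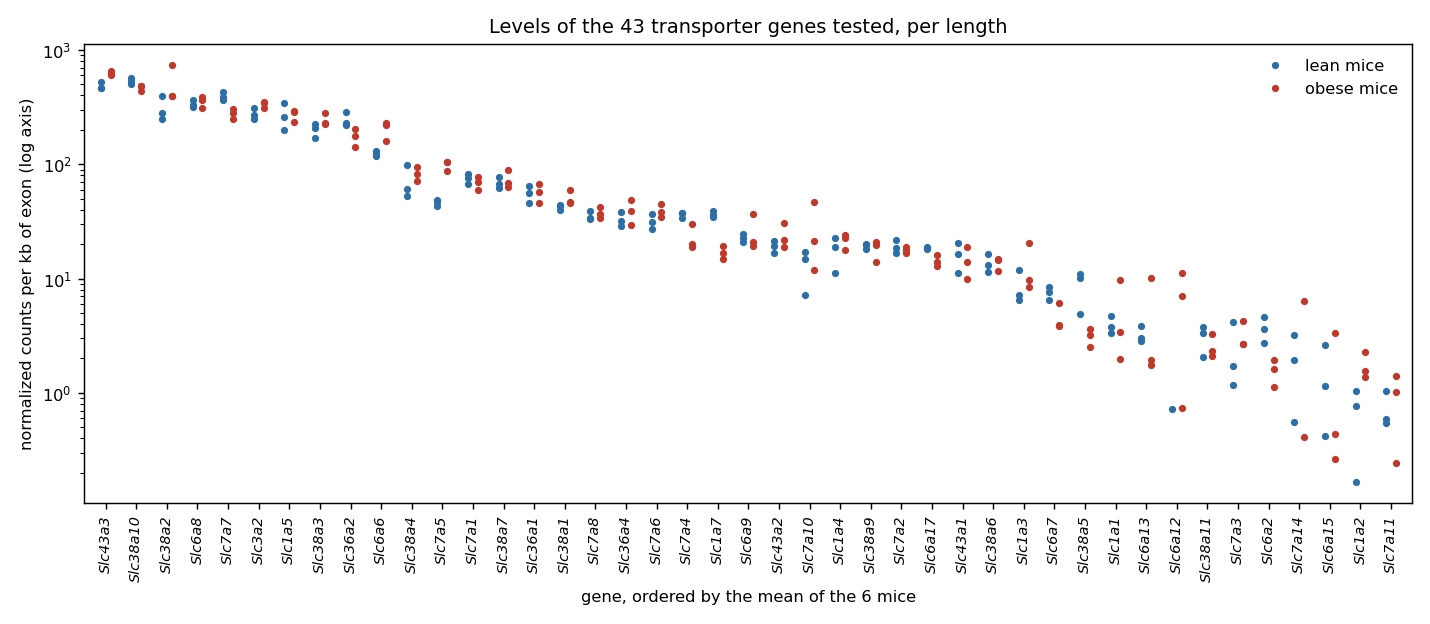
Level of each of the 43 genes tested in each mouse, in normalized counts per kb of exon on a log axis, with genes ordered by the mean of the 6 mice and lean and obese mice side by side. Levels run from 556 for Slc43a3 to 0.805 for Slc7a11, and a value of 0 has no point.

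Slc3a2 encodes the heavy chain 4F2hc, also called CD98, the partner of most light chains. Its normalized counts were 1246, 1088 and 1207 in obese mice 1, 2 and 3 and 1099.5, 953 and 888 in lean mice 1, 2 and 3. Obese mouse 2 lay just below lean mouse 1, so the groups overlapped, and the difference of 0.27 (SE 0.12) on the log2 scale did not pass (limma adjusted p = 0.413). Slc3a1, the heavy chain rBAT of kidney and gut, had between 0 and 13 reads per mouse and was not tested.

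Slc7a5 (ENSMUSG00000040010, chr8:121881150-121907694 in GRCm38, minus strand) encodes LAT1, which exchanges leucine and other large neutral amino acids. It had 321, 384 and 387 normalized counts in obese mice 1, 2 and 3 and 180.3, 162 and 174 in lean mice 1, 2 and 3. The lowest obese mouse was above the highest lean mouse by more than the spread within either group, with means of 364 ± 37.2 and 172 ± 9.52 (SD, n = 3 each). The log2 difference was 1.08 (SE 0.15, 95% interval 0.74 to 1.41, limma adjusted p = 0.0140). In edgeR, on the recovered reads, the adjusted p was 0.0140 as well. The call is close to the threshold: leaving out obese mouse 2, lean mouse 2 or lean mouse 3 gave adjusted p-values of 0.0649, 0.0824 and 0.0613, with log2 differences between 1.03 and 1.08. A fit without a trend of variance on level gave 0.119 and called none of the 15275 genes, of which 1717 had an unadjusted p under 0.05. The transcript span of Slc7a5 lies inside that of the readthrough gene Gm20388 on the opposite strand, but they share no exonic base.

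Slc7a7 encodes y+LAT1, a light chain that exchanges cationic for neutral amino acids and is known from macrophages as well as from epithelia. Its counts were 922, 826 and 1001 in obese mice 1 to 3 and 1289.9, 1212 and 1436 in lean mice 1 to 3. All obese mice were below all lean mice, and the mean of the obese group was 0.698 of the lean mean. The difference was -0.52 (SE 0.12, limma adjusted p = 0.0883), so it did not pass the adjusted threshold. It passed in DESeq2 (adjusted p = 0.0128) and without obese mouse 3 (0.0415). Slc7a7 shares 232 exonic bases with Oxa1l on the opposite strand, whose own difference was -0.22, and whether reads were assigned by strand is not stated. The summed level of 6 macrophage markers was 9168 to 10472 in obese and 6724 to 8398 in lean mice. Adgre1, Csf1r, Lyz2 and Mrc1 overlapped between the groups, and Cd68 and Cd163 were higher in every obese mouse. Of the 6, 1 passed the adjusted threshold. The summed macrophage level thus ran opposite to Slc7a7, and its part in the result was not tested. In whole atria, fewer cells of a type and less RNA per cell cannot be told apart.

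The remaining light chains gave smaller or less certain differences. Slc7a8 encodes LAT2, a neutral exchanger, and had 171, 213 and 184 counts in obese and 195, 170.4 and 167 in lean mice. Slc7a6, the y+LAT2 gene, had 176, 159 and 206 in obese and 124, 144 and 169 in lean mice. Both overlapped between the groups, with log2 differences of 0.09 (95% interval -0.28 to 0.46) and 0.31 (-0.11 to 0.72). Slc7a10 encodes Asc-1, a carrier of small neutral amino acids that is also used as a surface marker of white adipocytes. It had 98.4, 44.9 and 25.0 counts in obese and 35.8, 31.5 and 15.3 in lean mice. Obese mouse 1 carried most of its difference of 0.87 (SE 0.51, limma adjusted p = 0.548), which was 0.36 without that mouse. The white adipocyte marker Adipoq had its highest value in the same mouse and its lowest in the same lean mouse, 533 in obese mouse 1 and 67.8 in lean mouse 3. The 8 white adipocyte markers summed to 8455 to 15701 in obese and 4160 to 8065 in lean mice, and 1 of the 8 passed the adjusted threshold. Of the 8, Fabp4 and Lipe were higher in every obese mouse and the other 6 overlapped. Among the overlapping ones, Lep had a lower mean in obese mice (12.8 against 26.8). The part of these markers in the result was not tested. Slc7a10 also shares 377 exonic bases with Lrp3 on the opposite strand. Slc7a11, the xCT chain that takes up cystine in exchange for glutamate, had 3 to 19 reads per mouse and a difference of 0.04 (-1.57 to 1.66), which leaves even a large change undetectable at this depth. Slc7a9, Slc7a13 and Slc7a15 had between 0 and 9 reads per mouse, and Slc7a12 had none.

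**Figure D3:**
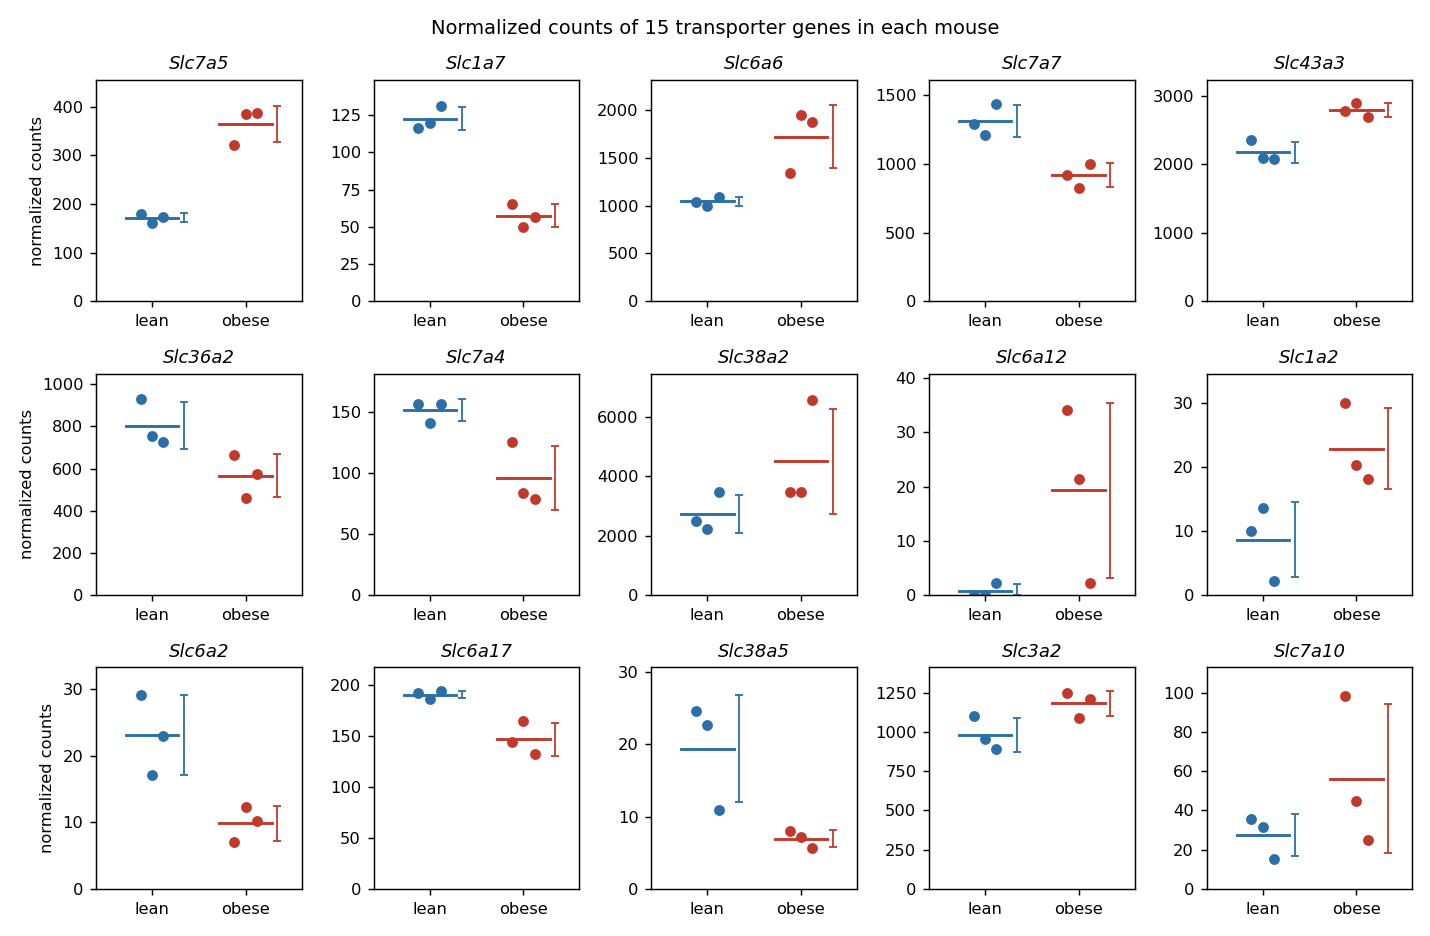
Normalized counts of 15 transporter genes in each mouse, the 13 with an unadjusted p under 0.05 followed by Slc3a2 and Slc7a10. Points are mice, horizontal lines group means and vertical bars 1 SD (n = 3, cut off at 0), and each axis starts at 0. The obese and lean points do not overlap in the first 13 panels, narrowly so for Slc38a2 and Slc6a12.

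Most light chains share 1 heavy chain, and their make-up was also described as shares of the summed light chain level per kb, a view chosen after the values had been seen. Slc7a7 made up 57.2%, 54.6% and 60.3% of the sum in obese mice 1 to 3 and 74.6%, 73.8% and 77.4% in lean mice 1 to 3. The share of Slc7a5 was 17.8%, 22.7% and 20.9% in obese and 9.32%, 8.79% and 8.37% in lean mice. In each of the 6 mice Slc7a7 was thus the most abundant light chain transcript and Slc7a5 the second. The mean shares were 57.4% ± 2.86 and 75.2% ± 1.90 for Slc7a7 and 20.5% ± 2.46 and 8.83% ± 0.473 for Slc7a5 (SD, n = 3 each). Slc7a6 and Slc7a8 each averaged between 6.06% and 8.17% in either group. Shares sum to 100%, so these values restate the differences above and are no further evidence of them.

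**Figure D4:**
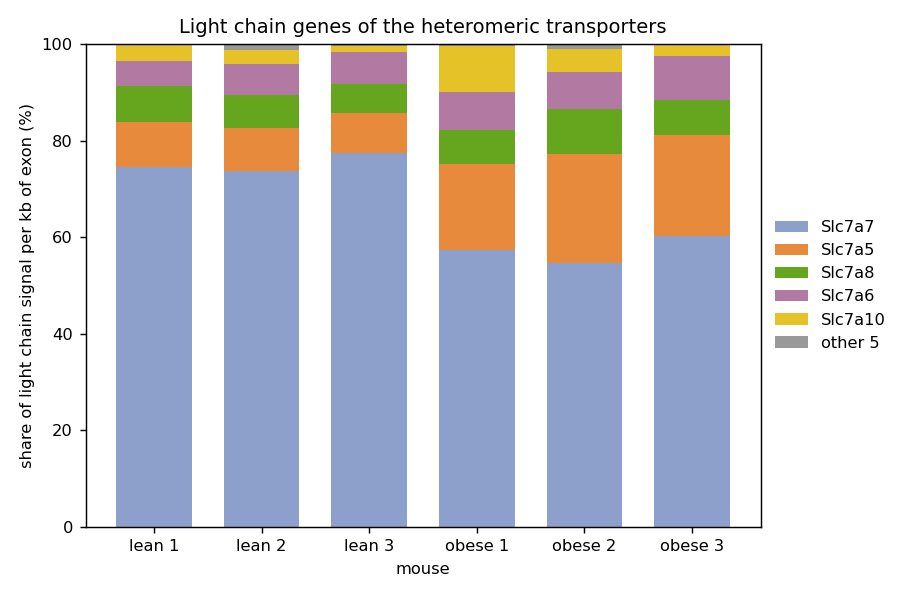
Share of each light chain gene in the summed light chain level per kb of exon, in percent, for each mouse. Slc7a7 takes 73.8% to 77.4% in the lean and 54.6% to 60.3% in the obese mice, and Slc7a5 8.37% to 9.32% and 17.8% to 22.7%.

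Several carriers are induced by the transcription factor ATF4 when amino acids run short, through a composite element that binds ATF4 with a C/EBP partner. The motif TGATGNAA was searched on both strands of the RefSeq promoter windows (GRCm38.p6), which reach from 250 bases before to 50 after each start site. Windows were listed for 42 of the 60 genes, and Slc7a5 and Slc6a6 are not among them. The motif was present in 4 of their 63 windows (6.35%), beside 1304 of all 32851 windows (3.97%), and these 4 belong to Slc7a11, Slc1a4 and Slc7a7. The sequences below are shown because they hold the motif in light chain promoters, on the minus strand, with each match in capitals.
Slc7a11, chr3:50443642-50443709: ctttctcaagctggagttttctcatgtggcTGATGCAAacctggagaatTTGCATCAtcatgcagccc
Slc7a7, chr14:54418048-54418115: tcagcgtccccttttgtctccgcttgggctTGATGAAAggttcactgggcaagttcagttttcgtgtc
The Slc7a11 stretch holds the motif in both orientations, beginning 66 and 47 bases before the start site. The Slc7a7 match shown begins 141 bases before the RefSeq start site that lies farthest upstream. A further match in Slc7a7, not shown, begins 1 base before that start site and is the same one that begins 243 bases before a start site downstream. In the deposited annotation Slc7a7 starts at chr14:54409472 on the minus strand, so both matches lie upstream of the start given there. The log2 differences, with 95% intervals, were 0.04 (-1.57 to 1.66) for Slc7a11 and 0.33 (-0.32 to 0.98) for Slc1a4. For Slc7a7 the difference was -0.52 (-0.79 to -0.25). The intervals of Slc7a11 and Slc1a4 span both directions, so whether the 3 genes moved together cannot be told from these values. A match describes the letters of the window and not the binding of a factor.

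The Slc38 family takes up glutamine and other small neutral amino acids with sodium. Of its 11 genes 10 were tested, and 6 of them were higher and 4 lower by sign. Slc38a2 and Slc38a5 had an unadjusted p under 0.05 in limma (20%, beside 12.2% of all genes). Slc38a2 encodes SNAT2, a system A carrier that cells induce when amino acids are scarce. It had 3471, 3475 and 6553 counts in obese mice 1 to 3 and 2501, 2219 and 3467 in lean mice 1 to 3. Obese mouse 3 was far above the rest, while the other 2 obese mice lay almost level with lean mouse 3. The difference of 0.68 (SE 0.24, limma adjusted p = 0.289) was 0.37 without obese mouse 3. Slc38a5, a system N glutamine carrier, had 8.04, 7.14 and 5.68 counts in obese and 24.6, 22.6 and 10.9 in lean mice. These are 5 to 8 reads against 10 to 33, and the difference of -1.29 had an interval that ended just below 0 (limma adjusted p = 0.406). The obese mean of Slc38a5, 6.95, was under the minimum of 10, so it entered the test through the lean mean of 19.4. Slc38a3, the other system N gene, had 1476, 1207 and 1188 in obese and 1187, 1107 and 889 in lean mice, with obese mouse 3 and lean mouse 1 nearly equal (difference 0.29, adjusted p = 0.464). Slc38a1, a system A gene, and Slc38a10 did not overlap between the groups either, with differences of 0.25 and -0.20 and adjusted p-values of 0.506 and 0.505. Slc38a10 had 2802, 3100.3 and 3125 counts in obese and 3658, 3238 and 3467 in lean mice. Slc38a1, Slc38a2 and Slc38a4 are neighbours on chromosome 15, and their differences were 0.25, 0.68 and 0.27. Slc38a9, the lysosomal arginine sensor that signals to mTORC1, averaged 303 and 323 counts in obese and lean mice and differed by -0.11 (95% interval -0.50 to 0.27). The lysosomal glutamine carrier gene Slc38a7 differed by 0.08.

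The Slc36 family moves small amino acids together with protons, and Slc36a1 and Slc36a2 lie 19.3 kb apart on chromosome 11. Slc36a2 encodes PAT2, known as a surface protein of brown adipocytes. It had 665, 462 and 574 counts in obese mice 1 to 3 and 932, 755 and 725 in lean mice 1 to 3. All obese mice were lower, with a ratio of means of 0.705 and a difference of -0.51 (SE 0.16, limma adjusted p = 0.208). Brown adipocyte markers ran the other way, with Ucp1, Cidea and Dio2 higher in every obese mouse. Elovl3 had at most 14.1 counts, and Zic1 and Lhx8 were at or near 0. The 6 markers summed to 617 to 1283 in obese and 188 to 333 in lean mice. Of the 6, 3 were tested, with differences of 1.21 to 4.43, and 2 of these passed the adjusted threshold. The part of these markers in the result was not tested. Slc36a1, the lysosomal and plasma membrane carrier PAT1, averaged 318 and 311 counts and differed by 0.03 (-0.38 to 0.43). Slc36a4 differed by 0.22 with overlapping groups.

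The Slc43 family holds the facilitative neutral carriers LAT3 and LAT4 and the purine base carrier encoded by Slc43a3. Slc43a3 had 2771, 2895 and 2692 counts in obese mice 1 to 3 and 2355, 2096 and 2080.1 in lean mice 1 to 3. Each obese mouse was above each lean mouse and the spread was small, 2786 ± 103 against 2177 ± 154 (SD, n = 3 each). The difference of 0.36 (SE 0.11, limma adjusted p = 0.172) was thus modest in size and did not pass. Slc43a1, its neighbour on chromosome 2, differed by -0.17 and Slc43a2 by 0.29, both with overlapping groups.

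Among the neutral exchangers of the Slc1 family neither gene separated the groups. Slc1a5 encodes ASCT2, which takes up glutamine and can supply LAT1 with it for exchange. It had 1231, 977 and 1206 counts in obese and 1421, 1072 and 838 in lean mice, so that lean mice 1 and 3 held the highest and the lowest value of all 6. The difference of 0.06 had a 95% interval of -0.34 to 0.47 and turned to -0.12 without lean mouse 3. Slc1a4, the ASCT1 gene, differed by 0.33 (-0.32 to 0.98).

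Of the glutamate carriers of the same family, Slc1a7 came closest to the threshold. It encodes EAAT5, which is best known from the retina and passes chloride as well as glutamate. It had 65.3, 50.0 and 56.8 counts in obese mice 1 to 3 and 116, 119.8 and 131 in lean mice 1 to 3. The highest obese mouse was well below the lowest lean mouse, and the group means were 57.4 ± 7.68 and 122 ± 7.72 (SD, n = 3 each), a ratio of 0.468. The difference was -1.09 (SE 0.21, 95% interval -1.56 to -0.61, limma adjusted p = 0.0529), which missed the threshold. In edgeR the adjusted p was 0.0646 and in DESeq2 0.00731, and it was 0.0437 without obese mouse 3. Slc1a2, the glial carrier GLT-1, had 30.1, 20.4 and 18.2 counts in obese and 10.1, 13.7 and 2.19 in lean mice, or 16 to 30 reads against 2 to 20, and its difference of 1.54 had an adjusted p of 0.385. Slc1a3, the glial carrier GLAST, had 176 counts in obese mouse 1 and between 55.7 and 101 in the other mice. Slc1a1 had 79.5 in obese mouse 3 and between 16.3 and 39.0 in the others. It shares 2631 exonic bases with a transcript on the opposite strand, 4430402I18Rik, whose level was higher, and is uncertain for that reason.

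Within the Slc6 family the carriers of taurine, creatine, betaine and GABA were tested for 4 of 6 genes. Of these 4, 2 had an unadjusted p under 0.05 in limma (50%, beside 12.2% of all genes), Slc6a6 and Slc6a12. Slc6a6 encodes the taurine carrier TauT. It had 1341, 1947 and 1878 counts in obese mice 1 to 3 and 1041, 998 and 1094 in lean mice 1 to 3. The lean mice lay close together and every obese mouse was above them, with means of 1722 ± 332 and 1044 ± 48.2 (SD, n = 3 each) and a ratio of 1.65. The difference was 0.70 (SE 0.15, 95% interval 0.37 to 1.03, limma adjusted p = 0.0657). It passed in DESeq2 (adjusted p = 0.000862) and without obese mouse 1 (0.0284), and not in edgeR (0.0651). The creatine carrier gene Slc6a8 had 1629, 1902 and 2017 counts in obese and 1715, 1894 and 1659 in lean mice. Its groups overlapped and its difference of 0.07 had an interval of -0.19 to 0.34.

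Slc6a12 encodes BGT1, a carrier of the osmolyte betaine and of GABA. It had 34, 21 and 2 reads in obese mice 1 to 3 and 0, 0 and 2 in lean mice 1 to 3. Obese mouse 3 and lean mouse 3 thus had the same 2 reads, and obese mice 1 and 2 carried the difference. The ratio of the 57 obese to the 2 lean reads was 32.6 after scaling, with a 95% exact (Clopper-Pearson) interval of 8.63 to 276 that covers counting error and not the spread between mice. On the log2 scale the difference was 3.22 (SE 1.22, limma adjusted p = 0.318). Its neighbour Slc6a13, 5.34 kb away on chromosome 6, had 29 reads in obese mouse 1 and 5 to 12 in the other mice.

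The amino acid carriers of the Slc6 family were of low abundance in atria. Slc6a17, a carrier of neutral amino acids in synaptic vesicles, had 144, 164 and 132 counts in obese mice 1 to 3 and 191, 186 and 193 in lean mice 1 to 3. All obese mice were lower, and the difference was -0.38 (SE 0.17, limma adjusted p = 0.386). Slc6a7, the proline carrier of brain, was lower in every obese mouse as well, with 12 to 21 reads against 24 to 33 (difference -0.69, adjusted p = 0.565). Slc6a9, the glycine carrier GlyT1, averaged 131 and 117 counts and differed by 0.10. It shares 1429 exonic bases with Ccdc24 on the opposite strand. Slc6a15 had 26.1 and 20.2 counts in obese and lean mouse 1 and 2.04 to 8.90 in the other mice.

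Slc6a2, the noradrenaline carrier of sympathetic nerve endings, had 7.03, 12.2 and 10.2 counts in obese mice 1 to 3 and 29.1, 17.1 and 23.0 in lean mice 1 to 3. These are 7 to 12 reads against 21 to 26, and the difference of -1.15 (SE 0.50) had an adjusted p of 0.385. Sympathetic neurons keep their cell bodies, and most of their RNA, in ganglia outside the atria. The tyrosine hydroxylase gene Th, which makes the transmitter that Slc6a2 takes back, overlapped between the groups, with 6.81 to 55.3 counts in obese and 4.79 to 32.5 in lean mice. The 8 neuron and glia markers summed to 531 to 1502 in obese and 683 to 1310 in lean mice. By sign 5 of the 8 were lower and 3 higher in obese mice, with a median log2 difference of -0.29. Of the lower ones, 2 had an unadjusted p under 0.05 and 1 did not overlap, and none of the 8 passed the adjusted threshold. The part of these markers in the result was not tested.

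The cationic carriers bring arginine and lysine into the cell. Slc7a1, the broadly expressed CAT1 gene, had 685, 893 and 803 counts in obese and 881, 775 and 939 in lean mice, with overlapping groups and a difference of -0.13 (-0.43 to 0.17). Slc7a2 differed by -0.09 (-0.47 to 0.29). Slc7a4, a relative for which transport is not well established, had 126, 83.6 and 78.4 counts in obese mice 1 to 3 and 157, 141 and 156 in lean mice 1 to 3. All obese mice were lower (ratio 0.633, difference -0.68, SE 0.22, limma adjusted p = 0.222). It shares 554 exonic bases with P2rx6 on the opposite strand, whose difference was -0.14. Slc7a3 and Slc7a14 had few reads, and Slc7a14 had 62 in obese mouse 1, 4 in obese mouse 2 and 0 in obese mouse 3.

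The genes around these carriers were read from 3 lists. Of 16 regulators of amino acid transporters 15 were tested, and 1 passed the threshold: Atf5, a transcription factor of the amino acid response, rose from 1602, 1407 and 1037 counts in lean mice 1 to 3 to 2905, 2652 and 2466 in obese mice 1 to 3 (difference 1.01, SE 0.16, limma adjusted p = 0.0234). That call, too, depends on single mice, with adjusted p-values of up to 0.0885 when 1 was left out. Including Atf5, 5 regulators (33.3%, beside the 12.2% of all genes) had an unadjusted p under 0.05, and all 5 were higher in every obese mouse. The median of the 15 was 0.18. Atf4 itself had 2258, 1584 and 2428 counts in obese and 1564, 1522 and 1514 in lean mice (difference 0.42, adjusted p = 0.298). Cebpb, the gene of a C/EBP partner, had 965, 875 and 804 in obese and 481, 514 and 245 in lean mice (1.16, adjusted p = 0.0657). Klf15, a factor that controls the breakdown of branched-chain amino acids, had 1337, 1122 and 902 in obese and 728, 814 and 521 in lean mice (0.71, adjusted p = 0.129). Sgk1, the kinase that raises the activity of several carriers and is the subject of the study, had 864, 871 and 988 in obese and 719, 784 and 730.1 in lean mice (0.28, adjusted p = 0.357). Ddit3, another target of ATF4, did not separate the groups (-0.04). DESeq2 called 3 regulators, Atf5, Cebpb and Klf15, beside 3.34% of the genes with an adjusted p in that test. The same test called 4 of the 34 transporter genes for which it gave one, Slc7a5, Slc6a6, Slc1a7 and Slc7a7.

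Amino acid sensing by mTORC1 was read from 29 genes, all of them tested. None passed in limma or in edgeR. In each, 1 gene (3.45%) had an unadjusted p under 0.05, beside 12.2% of all genes in limma. In limma this gene was Fnip1, a partner of folliculin at the lysosome, with 874, 1001 and 647 counts in obese and 448, 571 and 599 in lean mice (difference 0.63, adjusted p = 0.154), and DESeq2 called it. The median over the 29 genes was -0.05, and 6 of them (20.7%) did not overlap between the groups, beside 18.0% of all genes. Of 11 other amino acid carriers of the plasma membrane, vesicles and lysosomes 6 were tested, and none had an unadjusted p under 0.05 in limma, edgeR or DESeq2. Their median was 0.10.

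The transporter genes that were not tested complete the account. No read fell on 8 of the 60, among them Slc6a3, Slc6a5, Slc6a11, Slc6a16, Slc6a18, Slc7a12 and Slc38a8. Another 9 had reads but a mean under 10 normalized counts, the highest of these means being 7.07 and the highest value in a mouse 13.6. They are Slc3a1, Slc7a9, Slc7a13, Slc7a15, Slc1a6, Slc36a3, Slc6a4, Slc6a14 and Slc6a19. Slc6a4, the serotonin carrier, had 3 to 9 reads in obese and 4 to 11 in lean mice. At these depths a difference between the groups was not detectable.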

How the data were processed

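Atrial RNA was made into directional libraries and sequenced as single-end reads of 50 bases. Per the labels and the methods, the authors aligned reads with STAR to GRCm38 (Ensembl 79), kept uniquely mapped reads and assigned them to genes with Salmon; versions are not given in the sources used here. The deposited signal is a read count divided by the authors' DESeq2 size factor, called normalized count here. Values were whole multiples of 1 read in 100% of cases (tolerance 0.001 reads), so counts could be recovered. The deposited log2 fold changes, p-values and scores of the authors' own comparison were not used.

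Groups were compared with limma 3.58.1 (R 4.3.3; lmFit, and eBayes allowing the variance to follow the level) after log2(normalized count + 1), for the 15275 genes with a mean of at least 10, with Benjamini-Hochberg adjustment over all of them and a threshold of 0.05. The pseudocount understates changes of low genes. The transporters, lists and tests were chosen with earlier results of these data known. Named genes are those past the threshold or with an unadjusted p under 0.05, the 10 transporters of highest count, the heavy chains and their light chains; other members are given by their values. The single fit used all 6 mice and no covariate. Alternatives were quantile normalization, edgeR 4.0.16 (TMM, quasi-likelihood) and DESeq2 1.42.0 on recovered reads, no variance trend, other filters, a pseudocount of 0.1, a replicate block and each mouse left out. Exon lengths and names come from GENCODE M21 (97.8% of identifiers matched). No 2 libraries of the same group agreed within sampling noise. The fit was checked on simulated counts. Some genes are not reported here.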

Additional observations from a re-analysis of the deposited data

How the results depend on the processing

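Across 14 alternatives, 298 of 314 values of the 23 named transporter genes kept their direction and their side of the threshold. The 4 that turned were small: Slc1a5 became -0.12 without lean mouse 3, and Slc7a11 -0.18 without obese mouse 1, -0.07 without lean mouse 2 and -0.11 without lean mouse 3 (ranges with 1 mouse left out, -0.12 to 0.26 and -0.18 to 0.71). Most of the 298 kept their side by staying uncalled. They include Slc1a2, Slc38a5, Slc6a12, Slc6a2 and Slc7a11 in DESeq2, which gave these no adjusted p. Slc7a5, the only gene called in the main fit, lost its call without a variance trend and without obese mouse 2, lean mouse 2 or lean mouse 3. The number of transporter genes called, 1, was 4 in DESeq2, 2 with a minimum of 10 in every mouse (Slc7a5 and Slc1a7) and 0 without a variance trend, where 13 had an unadjusted p under 0.05 and no gene of the whole table was called. Leaving out 1 mouse gave 0 to 3 calls, with 0 without obese mouse 2, lean mouse 2 or lean mouse 3, 2 without obese mouse 1 (Slc7a5 and Slc6a6) and 3 without obese mouse 3 (Slc7a5, Slc1a7 and Slc7a7). The median difference of 0.06 was 0.16 in edgeR and 0.16 in DESeq2, and 0.00 to 0.16 with 1 mouse left out. The 17 genes without overlap became 15 after quantile normalization (34.9%, beside 17.9% of all genes) and 18 to 22 with 1 mouse left out (41.9% to 51.2%, beside 24.1% to 32.1% of all genes, since fewer mice overlap less often). Of the genes of the other lists, 1 was called, against 4 in DESeq2, 0 without a variance trend, 2 without a filter and 0 (without obese mouse 1 or 2 or lean mouse 2 or 3) to 4 (without obese mouse 3) with 1 mouse left out. Over all genes, 114 calls became 87 in edgeR, 470 in DESeq2, 137 with the stricter filter, 135 without a filter and 14 (without lean mouse 2) to 342 (without obese mouse 3). The cause of these differences was not tested.

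Mice of the same replicate number did not deviate together (correlations 0.12, -0.03 and 0.00, beside -0.15 to 0.16 for mice of different numbers). The main fit did not pair the mice by number. Deviations from the mean of 3 mice cannot exclude a batch shared by mice of the same number. A fit with the replicate block called 2 transporter genes, Slc7a5 and Slc38a2 (adjusted p = 0.0208 and 0.0497), and 2 genes of the other lists, and 157 genes in all. Its median difference was 0.06. Depth limits the genes of few reads, and lean mouse 2 was sequenced more deeply than the rest.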

Other observations

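Slc17a7 was more abundant in atria than any of the 60 transporter genes when compared per length. The gene encodes the vesicular glutamate carrier VGLUT1, best known from excitatory nerve endings, and which cells of the atria hold its RNA was not tested. It averaged 1068 normalized counts per kb of exon, beside 556 for Slc43a3. Its counts were 5382, 4826 and 6728 in obese mice 1 to 3 and 6112, 6047 and 5449.9 in lean mice 1 to 3, and the groups overlapped (log2 difference -0.07, 95% interval -0.37 to 0.23). The other vesicular carriers of glutamate, Slc17a6 and Slc17a8, had no read and 1 read in all. This gene was singled out after its values had been seen.

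Obese mouse 1 held the highest value of Slc7a14, Slc1a3 and Slc6a13. Slc7a14 had 62.3 counts there and 0 to 31.5 in the other mice, Slc1a3 had 176 against 55.7 to 101, and Slc6a13 had 29.1 against 5.10 to 11.2. Other carriers known from nerve did not follow. Slc6a2 had its lowest value in obese mouse 1, 7.03 counts against 10.2 to 29.1 in the other mice. Slc6a17 had 144 counts there, below the 186 to 193 of the lean mice. The neuronal markers Prph and Tubb3 were highest in obese mouse 1, with 282 and 294 counts against 13.1 to 148 and 33.7 to 158. They belong to a list of 8 neuron and glia markers that set this mouse apart less clearly. All 8 summed to 1502 in obese mouse 1, 1310 in lean mouse 1 and 531 to 890 in the other mice. The genes named in this paragraph were also chosen after their values had been seen.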
